A study of Penaeus merguiensis with 6 samples.

Results

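In the hepatopancreas of the banana shrimp Penaeus (Fenneropenaeus) merguiensis, 28 of 57303 assembled genes were measured in every RNA-sequencing library and lower in each library from cadmium-exposed shrimp than in each library from controls. They were chosen by their FPKM values (sequenced fragments scaled to the length of the transcript and the size of the library). A member is above 0 in all 6 libraries, averages at least 5 and below 1000 FPKM over them, and has a lowest control value at least 1.5 times its highest cadmium value. Since these values chose the members, their difference between the groups is given as a description and supports nothing by itself.

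Shrimp of the cadmium group (3 libraries) spent 72 hours at 0.5 mg/L cadmium, added to the water as cadmium chloride. Shrimp of the control group (3 libraries) were kept as long, 72 hours, at 0.0 mg/L. The design text describes the cadmium level as the median lethal one for that time, taken from a preliminary trial. The labels give no sex, age or strain, and the tank and the number of shrimp behind a library are not recorded there. The spread between libraries of a group may therefore be partly technical.

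The hepatopancreas is the main digestive gland of decapod crustaceans. Its epithelial cells secrete digestive enzymes, absorb nutrients and store lipid and glycogen, and it is also where crustaceans take up and detoxify metals. Cadmium is a toxic metal with no established role in animals. It binds thiol groups, displaces zinc from proteins and raises oxidative stress, and cells bind it with metallothioneins, small cysteine-rich proteins. The gene IDs of the deposited table are not paired with names or sequences here, so the role of a member, and the labelled tissue against its marker genes, were not examined. The members are numbered 1 to 28 from the highest to the lowest mean FPKM, and an ID is given for only 2 of them. In a bulk library, fewer cells of a type and less RNA per cell cannot be told apart.

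The deposited FPKM summed to 1702598 to 1795006 per cadmium library and to 1716861 to 2003399 per control library. Between 34777 and 35844 genes were above 0 in the cadmium libraries, against 33155 to 37231 in the controls. The number of fragments behind a library is not recorded in the table. The limits on level alone were met by 7734 genes, of which the 28 members were 0.362%.

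The reverse pattern was more frequent. By the same limits, with the lowest cadmium value at least 1.5 times the highest control value, 146 genes were higher in every cadmium library, against the 28 that were lower. The same limits were also applied with the 6 libraries grouped in the other ways, each time with 3 libraries that mix the groups set above the remaining 3. The 18 mixed groupings gave 4 to 75 genes each, with a median of 22, and 5 of the 18 gave at least 28. The count of members thus lay inside the range that mixed groupings gave, and the count of 146 lay above it. The largest mixed count, 75, came with control 3, cadmium 1 and cadmium 3 set above the rest. A limit that only 5 libraries have to obey is looser, and leaving out cadmium 1, 2 or 3 gave 58, 60 or 70 lower genes, while leaving out control 1, 2 or 3 gave 52, 109 or 74. The higher genes then numbered 189, 255 or 270 without cadmium 1, 2 or 3, and 230, 358 or 442 without control 1, 2 or 3.

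The balance between lower and higher genes moved with the scaling of the libraries. The median log2 fold change, cadmium over control on log2(FPKM + 1), was 0.11 over the 19862 genes that reached 1 FPKM in 3 or more libraries, so most genes read slightly higher with cadmium as deposited. After upper-quartile scaling that median was -0.03, and 44 genes were lower against 92 higher. Median-of-ratios scaling gave 33 lower and 105 higher genes, and quantile normalization gave 33 lower and 108 higher. Of the 28 members as deposited, 27 met the limits after upper-quartile scaling, 25 after median-of-ratios scaling and 23 after quantile normalization. The mixed groupings reached at least the count of lower genes in 2 of 18 cases after upper-quartile scaling, and in 4 of 18 after each of the other scalings.

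**Figure D1:**
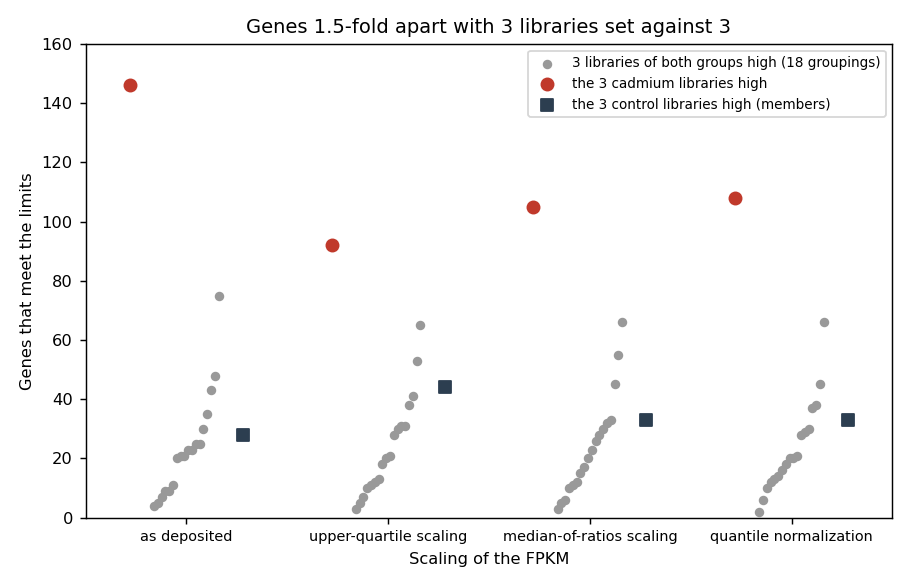
Number of genes (y axis) that met the limits with 3 libraries set above 3, for each scaling of the FPKM (x axis). Red circles stand for the 3 cadmium libraries high, grey points for the 18 groupings that mix the groups, and dark squares for the 3 controls high. As deposited, the dark square at 28 lies within the grey points, which run from 4 to 75, and the red circle at 146 lies above them.

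The mean level of the members ran from 5.56 to 971 FPKM, with none between member 2 at 149 FPKM and member 1 at 971 FPKM. Their median mean level was 16.8 FPKM, against 13.8 FPKM over the 7734 genes within the limits. Between 5 and 10 FPKM lay 10 of the 28 members, and 4 of 28 lay at 100 FPKM or more. These make 35.7% and 14.3% of the members, against 36.6% and 8.69% of the 7734 genes. The cadmium mean of a member ran from 0.839% to 50.2% of its control mean, with a median of 25.8%, where the median over the 7734 genes was 109%. In 9 members it was under 20% of the control mean, in 12 it was 20% to under 40%, and in 7 it was 40% or more. The ratio of the lowest control to the highest cadmium value was at least 2 in 14 members and at least 3 in 4 members.

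**Figure D2:**
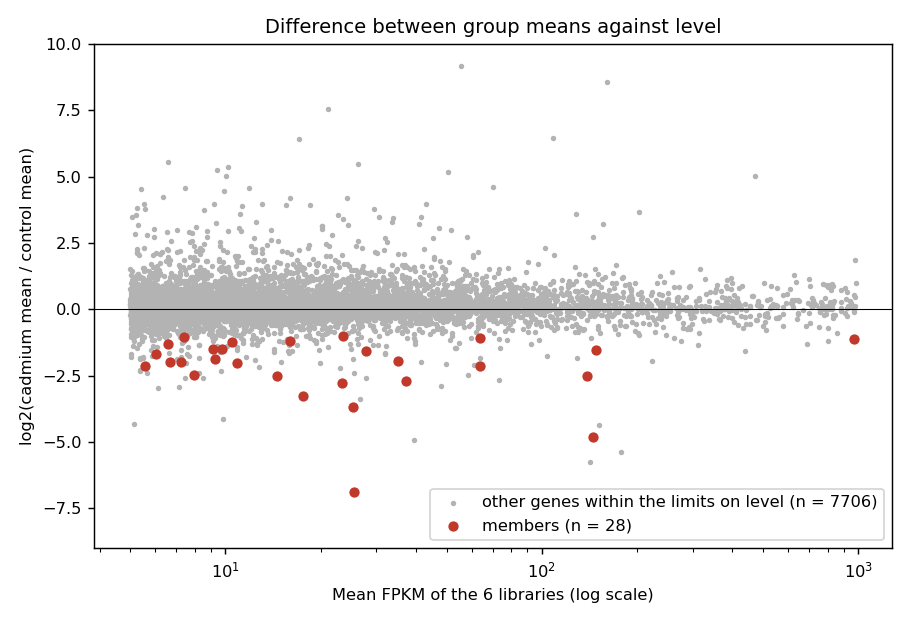
Log2 ratio of the cadmium mean to the control mean (y axis) against the mean FPKM of the 6 libraries on a log scale (x axis), with 1 point per gene. The 28 members (red) all lie below 0 among the 7706 other genes within the limits on level (grey), at levels between 5.56 and 971 FPKM. Some grey points lie lower than members, because at least 1 of their libraries broke the limit of 1.5.

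Member 1, TR3231_c0_g1, was by far the most abundant. It read 564, 604 and 654 FPKM in the cadmium libraries, against 1347, 1376 and 1281 FPKM in the controls. All 3 cadmium values were close together and stood below the controls, which were also close together. The mean was 608 ± 45.3 FPKM with cadmium and 1335 ± 48.4 FPKM in controls (SD, n = 3 each), so the cadmium mean was 45.5% of the control mean. Its mean of 971 FPKM is just under the upper limit of 1000 FPKM.

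Besides member 1, 5 others had steady values in both groups. In these 6 members the highest library was less than 1.5 times the lowest within cadmium and within control, and the cadmium mean was 40.2% to 50.2% of the control mean. Member 6 read 40.2, 39.1 and 44.5 FPKM with cadmium, against 94.7, 97.0 and 67.7 FPKM in controls. Member 12 read 16.1, 13.0 and 18.04 FPKM with cadmium, against 30.8, 32.9 and 30.2 FPKM in controls. In both members the lowest control stood above a narrow cadmium group, by 1.52 times in member 6 and 1.67 times in member 12.

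The lower steady members showed the same picture. Member 18 read 6.18, 6.26 and 6.45 FPKM with cadmium, against 14.5, 12.1 and 17.6 FPKM in controls. Member 23 read 4.47, 5.57 and 4.41 FPKM with cadmium, against 11.0, 9.99 and 8.90 FPKM in controls. Member 26 read 3.24, 4.11 and 4.0 FPKM with cadmium, against 8.95, 9.35 and 9.96 FPKM in controls. Over the 7734 genes, 2290 were as steady in both groups.

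**Figure D3:**
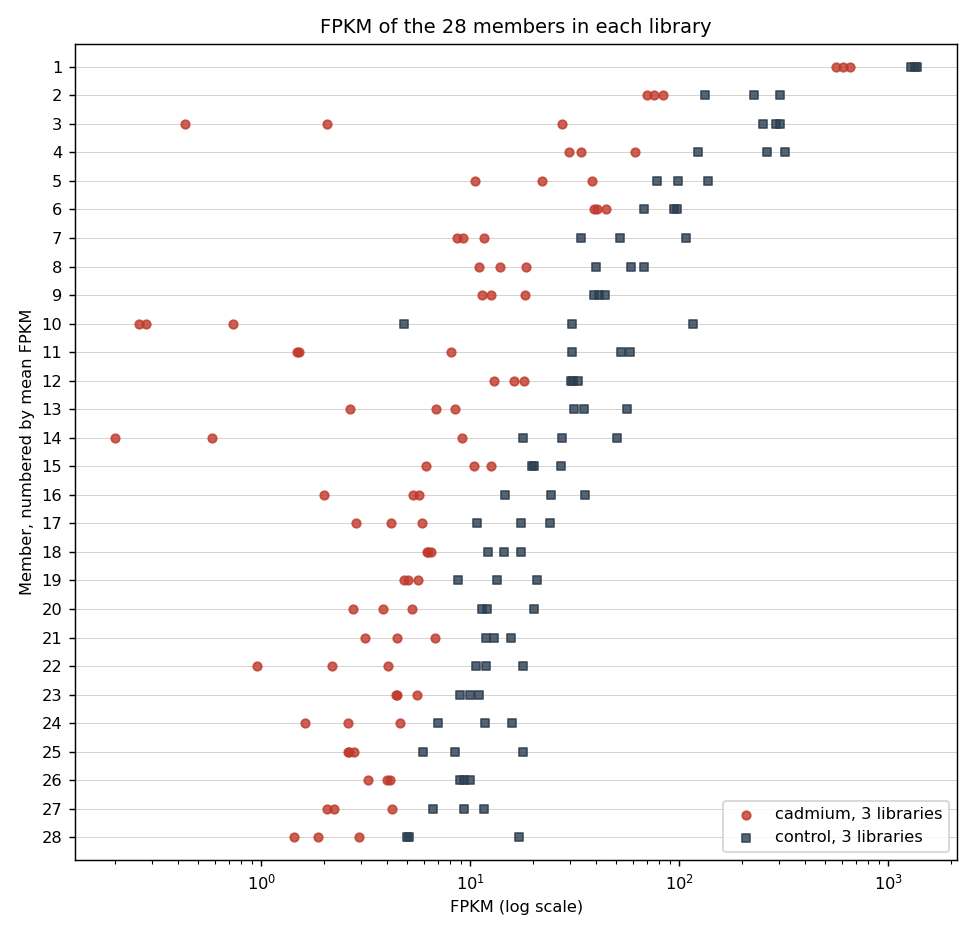
FPKM on a log scale (x axis) of the 28 members (y axis, numbered by mean FPKM), with 1 point per library. Red circles are the 3 cadmium libraries and dark squares the 3 controls, and the groups are apart in every member because the rule requires it. Members 1, 6, 12, 18, 23 and 26 have tight groups, while members 3, 10, 14 and 22 each have a cadmium value under 1 FPKM.

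The member with the widest gap was member 3, TR317_c1_g1. It read 27.6, 2.07 and 0.43 FPKM in cadmium libraries 1, 2 and 3, against 290, 251 and 302 FPKM in the controls. The controls were close to each other, and the cadmium libraries differed widely, with cadmium 1 far above the rest. The mean was 10.02 ± 15.2 FPKM with cadmium and 281 ± 26.7 FPKM in controls (SD, n = 3 each), so the cadmium mean was 3.56% of the control mean. Even the highest cadmium value was 9.11 times lower than the lowest control value.

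In members 11 and 14, as in member 3, cadmium 1 was the highest of the cadmium libraries. Member 11 read 8.11, 1.48 and 1.51 FPKM in cadmium 1, 2 and 3, against 52.3, 57.8 and 30.6 FPKM in controls. Member 14 read 9.08, 0.20 and 0.58 FPKM with cadmium, against 17.8, 50.4 and 27.5 FPKM in controls. In both, cadmium 2 was the lowest library, and cadmium 1 was several times above the other cadmium libraries and still below every control.

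Member 10 varied most among the controls. It read 0.28, 0.73 and 0.26 FPKM with cadmium, against 4.83, 116 and 30.6 FPKM in controls. The cadmium libraries were all near 0, and the controls spanned 24.0 times from lowest to highest. Its cadmium mean was 0.839% of its control mean, the lowest share among the members, but that control mean, 50.5 ± 58.2 FPKM (SD, n = 3), rests largely on control 2.

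The other 5 members under 20% of the control mean were 4, 7, 13, 16 and 22. Member 4 read 61.2, 29.7 and 33.8 FPKM with cadmium, against 320, 263 and 123 FPKM in controls. Member 7 read 9.18, 11.6 and 8.59 FPKM with cadmium, against 107, 34.0 and 51.9 FPKM in controls. In these 2 members control 1 was the highest library, and the controls were more spread than in member 3.

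Member 13 read 8.49, 2.65 and 6.85 FPKM with cadmium, against 31.2, 55.9 and 34.9 FPKM in controls. Member 16 read 1.99, 5.67 and 5.32 FPKM with cadmium, against 35.3, 24.4 and 14.6 FPKM in controls. Member 22 read 0.95, 2.19 and 4.03 FPKM with cadmium, against 10.7, 11.9 and 17.8 FPKM in controls. The lowest of the cadmium libraries was cadmium 2 in member 13 and cadmium 1 in members 16 and 22.

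In the remaining 13 members the cadmium mean was 22.6% to 43.4% of the control mean. Their cadmium means ran from 2.08 to 76.3 FPKM, against control means of 9.04 to 221 FPKM. The most abundant of them, member 2, read 75.7, 70.0 and 83.3 FPKM with cadmium, against 304, 227 and 133 FPKM in controls. Its cadmium libraries were close together, and control 3 stood well below the other controls. Member 5 read 38.1, 10.5 and 22.1 FPKM with cadmium, against 98.1, 78.1 and 137 FPKM in controls. Member 8 read 18.5, 11.0 and 13.8 FPKM with cadmium, against 58.9, 40.1 and 68.0 FPKM in controls. In both, cadmium 2 was the lowest and control 3 the highest library. Member 9 read 18.3, 12.6 and 11.4 FPKM with cadmium, against 38.9, 44.3 and 41.1 FPKM in controls, where it was steady.

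**Figure D4:**
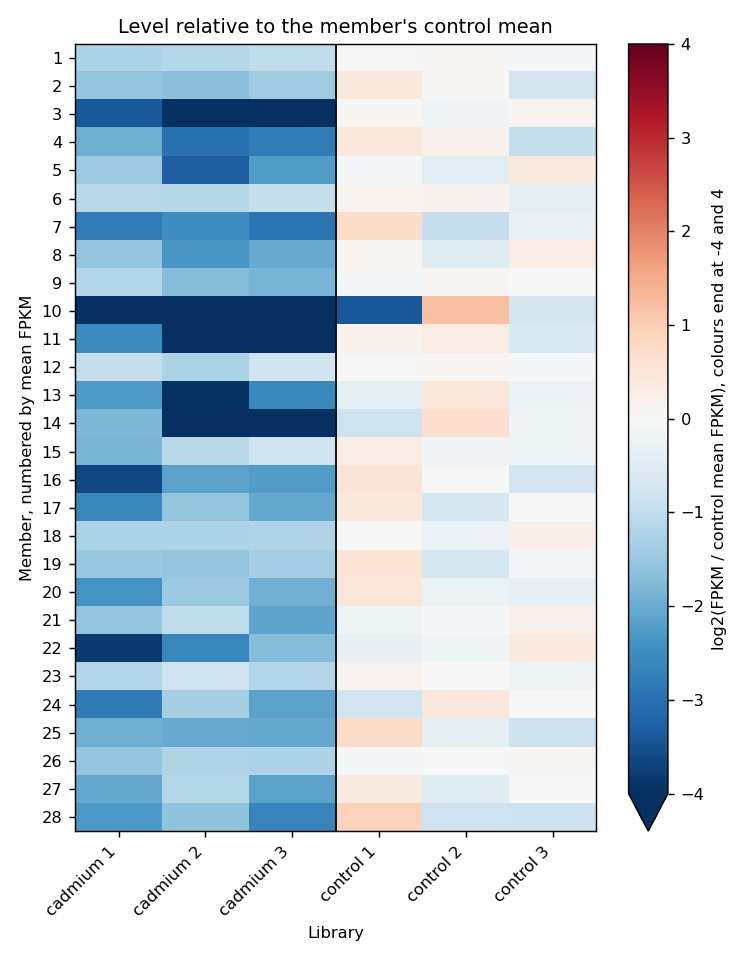
Log2 of FPKM over the member's control mean in each library (colour), with members down the page by mean FPKM and libraries across, cadmium on the left. Blue is below the control mean and red above it, and colours end at -4 and 4. The darkest cells lie in members 3, 10, 11, 13 and 14, where cadmium 1 is paler than cadmium 2 in each but member 10.

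Libraries of one group did not rank in a fixed order over the members. Among the cadmium libraries the highest value fell to cadmium 1 in 9 members, to cadmium 2 in 11 and to cadmium 3 in 8. Among the controls it fell to control 1 in 12, to control 2 in 9 and to control 3 in 7. Over the 7734 genes within the limits, cadmium 1 was the highest cadmium library in 45.1%, and control 3 the highest control in 42.6%. Members whose cadmium libraries differed by more than 3 times were 6 of 28 (21.4%, against 9.32% of the 7734 genes), and cadmium 1 was the highest in 5 of these 6. Members whose controls differed by more than 3 times were 4 of 28 (14.3%, against 15.2%). The median SD of log2 FPKM was 0.525 within cadmium and 0.43 within controls for the members, and 0.305 and 0.326 for the 7734 genes. The rule picks low cadmium values, so the spreads within cadmium are not compared at like levels. No trait of the members is read from them.

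After upper-quartile scaling the gap between the groups widened in most members and narrowed in members 1, 2, 6, 12 and 15. It closed in none of the members under any scaling. For upper-quartile and median-of-ratios scaling this was fixed in advance. Their library factors, 0.851 to 1.14, were too close together to bring a ratio of 1.5 down to 1. The ratio of the lowest control to the highest cadmium value was 1.51 to 9.11 as deposited. It was 1.49 to 12.2 after upper-quartile scaling, 1.43 to 11.8 after median-of-ratios scaling and 1.36 to 10.2 after quantile normalization. Member 6 was below 1.5 under all 3 scalings, at 1.49, 1.43 and 1.45 in that order. Members 2 and 15 fell below 1.5 after median-of-ratios scaling, and members 15, 23 and 28 after quantile normalization. Member 1 kept its gap after quantile normalization, but its mean then passed the upper limit of 1000 FPKM.

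**Figure D5:**
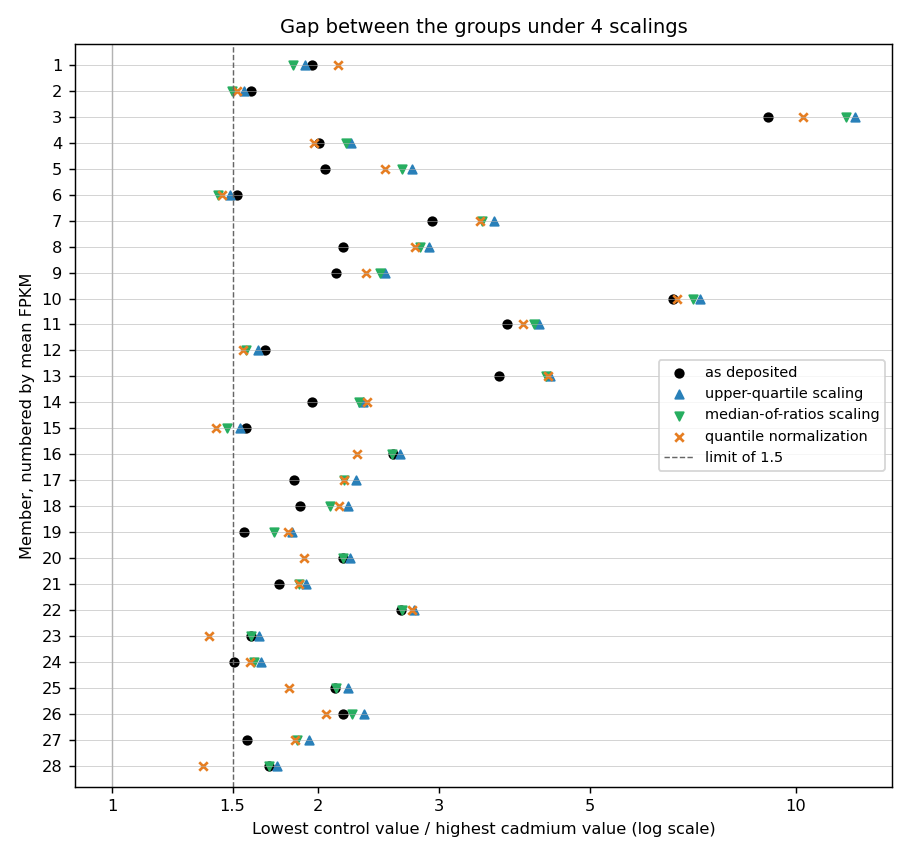
Lowest control value over highest cadmium value on a log scale (x axis) for the 28 members (y axis, numbered by mean FPKM) under 4 scalings. The dashed line marks the limit of 1.5 and the solid line a ratio of 1. No point lies at or below 1, member 3 lies farthest right under each scaling, and the points left of the dashed line belong to members 2, 6, 15, 23 and 28. Since members were chosen at 1.5, the factors of upper-quartile and median-of-ratios scaling could not bring a point to 1.

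Members 25 and 27, of the lowest level, rest on very few fragments. The FPKM worth of 1 fragment was read from genes above 0 in at most 4 libraries, and a gene was taken as a few-fragment gene when its 6 values were whole multiples of that worth, within 1.5% plus rounding, with at most 20 fragments in all. Of the 28 members, 2 (7.14%) were such genes, against 42 of the 7706 other genes within the limits (0.545%). Member 25 read 2.79, 2.64 and 2.61 FPKM with cadmium, against 17.8, 8.43 and 5.91 FPKM in controls. The smallest whole numbers that fit these values are 1, 1 and 1 fragments with cadmium, against 6, 3 and 2 in controls. Member 27 read 2.22, 4.20 and 2.07 FPKM with cadmium, against 11.7, 6.61 and 9.30 FPKM in controls, which fits 1, 2 and 1 fragments with cadmium, against 5, 3 and 4 in controls.

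For the other members the number of fragments is not known, and the values give only lower bounds. If whole fragments were counted, 1 fragment is worth no more than a gene's lowest value. Member 3 then held at least 54, 4 and 1 fragments in the cadmium libraries, against at least 563, 499 and 581 in the controls. Member 14 held at least 37, 1 and 2 with cadmium, against at least 72, 211 and 111 in controls. Member 10 held at least 1, 2 and 1 with cadmium, against at least 15, 381 and 97 in controls. In the remaining 23 members the bounds were low, at 1 to 4 fragments per cadmium library and 1 to 32 per control library, so these bounds do not show whether many or few fragments stood behind them. None of the 23 fitted at most 20 fragments in the search above. That search did not cover a worth of 1 fragment far above 30 FPKM, as member 1 would need. The bounds allow for the differences in the worth of 1 fragment between the libraries.

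On group average that worth was lower in cadmium libraries than in controls. The ranges are those of the value in control 1, which was taken as 1 fragment without a check. In genes at 0.3 to 0.5 FPKM in control 1, a fragment was worth 0.942 ± 0.0351 in cadmium libraries relative to control 1. In controls it was worth 0.965 ± 0.0432 (SD, n = 3 each), a ratio of 0.976. In genes at 20 to 30 FPKM in control 1 it was worth 0.844 ± 0.0308 with cadmium and 0.992 ± 0.0133 in controls (SD, n = 3 each), a ratio of 0.851. Each library's value there rests on only 6 to 8 genes, against 151 to 178 in the lowest range. Control 1 is set to 1 by definition, so the SD of the controls includes a fixed value. Single libraries did not all follow the averages. In the lowest range control 2, at 0.917, was below cadmium 1 at 0.979 and cadmium 2 at 0.939, and above cadmium 3 at 0.909. The difference between the group means there was smaller than either SD. Only averaged over a group did equal fragment numbers thus read as lower FPKM with cadmium in the range examined. The part of this in the members' lower values was not tested.

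The IDs look like those of Trinity, a program that assembles transcripts without a genome, and in them genes assembled from related reads can share the number after TR. The 28 members carried 28 different TR numbers. For 12 of them the table held further genes with the same TR number and a mean of at least 1 FPKM, 26 genes in all. In 22 of these 26 the groups overlapped, in 2 all cadmium libraries were below all controls, and in 2 they were above. The same shares over all genes of that level are not given here, so nothing is read from these counts. The ID shows neither a shared locus nor a shared function.

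The genes beside member 3 differed from it. The most abundant of the 5 read 32.3, 38.8 and 42.3 FPKM with cadmium, against 48.0, 41.4 and 36.0 FPKM in controls, and these groups overlapped. Another read 2.75, 3.66 and 3.69 FPKM with cadmium, against 8.60, 6.36 and 5.31 FPKM in controls, and with a ratio of 1.44 it was just outside the limit of 1.5. Beside member 7, a gene at 58.6, 45.4 and 35.0 FPKM with cadmium, against 146, 75.9 and 79.1 FPKM in controls, was also lower in every cadmium library. Of 2 genes beside member 18, one was higher in every cadmium library, at 43.4, 59.5 and 45.9 FPKM with cadmium, against 12.8, 27.8 and 31.0 FPKM in controls, and the other was above 0 in control 1 alone. One gene beside member 24 was also higher in every cadmium library, at 90.2, 73.0 and 87.2 FPKM, against 63.1, 54.2 and 72.2 FPKM in controls.

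The limit of 1.5 did not fall in a gap. The members just inside it were member 24 at 1.51, member 6 at 1.52 and member 19 at 1.56. Member 24 read 1.62, 4.63 and 2.60 FPKM with cadmium, against 6.98, 15.9 and 11.8 FPKM in controls. The genes just outside it had ratios of 1.48, 1.48 and 1.44. The first of these read 14.2, 16.9 and 12.6 FPKM with cadmium, against 30.2, 25.1 and 26.6 FPKM in controls.

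Some genes with a mean of at least 5 FPKM met the ratio but not the other limits. They were 9 at 0 in at least 1 cadmium library, 5 of these at 0 in all 3, and 1 above the upper limit on level. That gene read 1842, 2063 and 2021 FPKM with cadmium, against 4097, 4509 and 3843 FPKM in controls, so its pattern was like that of member 1 at a higher level. A further 40 genes, above 0 in all 6 libraries, met the ratio at a mean of 1 to under 5 FPKM. Genes at 0 with cadmium and a mean under 5 FPKM, and genes with a mean under 1 FPKM, were not counted. The search for few-fragment genes covered only genes above 0 in all 6 libraries. How many fragments stood behind the 9 genes at 0 was therefore not tested. In the 5 genes at 0 in all 3 cadmium libraries, the control values lay near small whole multiples of a common step. They read 21.3, 21.4 and 43.7 FPKM in one such gene and 12.6, 12.3 and 12.7 FPKM in another. Very few fragments can give such values, so 0 with cadmium is not read as absence of the transcript.

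In the fit across all 19862 genes with limma, none of the 28 members passed a Benjamini-Hochberg adjusted p of 0.05, where 13 genes (0.0655%) passed in the lower direction. The members' adjusted p ran from 0.0708 to 0.4 (limma). With limma's p taken without adjustment at 0.05, 28 of 28 members were lower, against 476 of the 19862 genes (2.4%). The rule used the same values, so nothing is read from either count. The fitted log2 fold change of member 1 was -1.14 ± 0.17 (SE) and that of member 3 was -5.81 ± 1.06 (SE). Over the members it ran from -5.81 to -0.92 with a median of -1.59, beside 0.11 over all genes tested. Without cadmium 1, members 3 and 11 passed, with limma adjusted p of 0.0178 and 0.0388. Member 8 passed after upper-quartile scaling, median-of-ratios scaling and quantile normalization, with limma adjusted p of 0.0432, 0.0478 and 0.0473 (0.0807 as deposited).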

How the data were processed

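The authors deposited 1 table of FPKM values with 2 decimals for 57303 assembled genes, and per the file headers its 6 columns carry the sample titles. Per the labels' protocols, TRIzol was used to extract the hepatopancreas RNA, and sequencing was on an Illumina HiSeq. The tools for assembly and quantification were not given in the sources used here. A gene name was paired with 0 IDs. Members were found by the limits stated in the report and by nothing else. Members, alternatives and tests were chosen with earlier results of these data known.

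The 19862 genes that reached 1 FPKM in 3 or more of the 6 libraries went as log2(FPKM + 1) into limma 3.58.1 under R 4.3.3 (lmFit, eBayes with a mean-variance trend, no covariate, two-sided Benjamini-Hochberg adjustment). A fold change on this scale understates the change of low genes. Scaling factors came from genes above 0 in all 6 libraries. The worth of 1 fragment was the median ratio to control 1 between 0.75 and 1.33, in 9 ranges of the control 1 value. That value was assumed to be 1 fragment. The rule, the fragment step and the limma step were tested on simulated data. An ID was printed for the member with the highest mean FPKM and the one with the widest gap. Python 3.11.15, numpy 2.4.6, pandas 2.3.3 and matplotlib 3.10.9 did the rest. The number of fragments per library is unknown, so no counting interval is given.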

Additional observations from a re-analysis of the deposited data

How the results depend on the processing

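The count of 28 members depended on the limits and the libraries. It was 44 after upper-quartile scaling, 60 with the limit on the ratio lowered by 0.25, 14 with it raised by 0.5 to 2, 68 from a mean of 1 FPKM and 13 from a mean of 20 FPKM. With 1 library left out it ran from 52 (without control 1) to 109 (without control 2), since fewer values then have to obey the limits. Median-of-ratios scaling, quantile normalization, values of 0 with cadmium and the removal of few-fragment genes gave 33, 33, 37 and 26. The median log2 fold change was -1.59 over the 28 members, and in each other setting it was taken over the genes chosen anew there. It was -1.74 after median-of-ratios scaling, and -1.15 and -2.26 with the lower and the higher limit on the ratio. From means of 1 and 20 FPKM it was -1.16 and -2.23, and with 1 library left out it was -1.60 to -1.42. The choice of members fixes its sign.

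Over all genes 71 passed in limma (58 higher and 13 lower), 27 with no filter on low values, 1 among genes above 0 in every library with a mean of at least 5 FPKM, 134 without the trend and 10 to 43 with 1 library left out. With the replicate block 1 gene passed, and 0 members. The numbers 1 to 3 are not known to pair libraries: deviations of same-numbered libraries correlated at 0.03, 0.01 and 0.04. Members past the threshold were 0, but 1 after each of the 3 scalings and 0 to 2 with 1 library left out. The cause of these changes was not tested. Depth is not recorded, and groups of 3 libraries limit the precision.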
